A study of Mus musculus with 14 samples.

Results

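Iron uptake, storage and export in microglia were followed through 10 genes, chosen by symbol: the sensors Ireb2 and Aco1, the importers and vesicle transporters Tfrc, Slc11a2 and Slc11a1, the ferritin subunits Fth1 and Ftl1 with the iron chaperone Pcbp1, the exporter Slc40a1 and the haem-degrading enzyme Hmox1. All 10 were found among 24394 named genes, and all 10 were among the 11646 genes tested, which had a mean of at least 10 normalized counts over the libraries. Microglia, the resident macrophages of the brain, had been sorted alive by surface CD11b and a low level of CD45, about 20000 cells per sample, from C57BL/6 mice aged 18 months. The anti-CD22 group (7 libraries) had received an antibody that blocks CD22, an inhibitory sialic acid receptor, and the IgG group (7 libraries) a control antibody. In both groups the antibody was infused for 1 month by osmotic pump into the cerebrospinal fluid, so surgery and cannula were shared, and the hemisphere opposite to the cannula gave the cells. C57BL/6 mice carry a loss-of-function allele of Slc11a1, which both groups share. Whether the 7 libraries of a group are 7 animals is not stated in the labels, so the p-values rest on a spread between libraries that may be technical. Depth was 20221836 to 38101421 reads in the 13 libraries for which whole reads could be recovered.

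Most cells take up iron bound to transferrin through the transferrin receptor, move it out of the endosome through Slc11a2, store it in ferritin and release it through ferroportin, the product of Slc40a1. When iron is scarce, the sensors IRP1 (encoded by Aco1) and IRP2 (encoded by Ireb2) bind RNA hairpins called iron-responsive elements: in the 5′ untranslated region of ferritin and ferroportin messages this blocks translation, and in the 3′ untranslated region of the transferrin receptor message it protects the RNA from decay. Macrophages in addition recover iron from engulfed haem through haem oxygenase 1, the product of Hmox1. Microglia are a major iron-storing cell of the aged brain. Much of this control acts on translation or protein stability, which RNA levels do not measure.

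The hairpins that a strict search found are shown, in messages that the sensors can hold back (Fth1, Ftl1 and Slc40a1) and in the Tfrc message, which they can protect. The search took a C, an arm of 5 bases, the loop CAGTGN and an arm of 5 bases that pairs with the first (G-T pairs allowed), on the transcript strand, in GENCODE vM21 transcripts on GRCm38, the assembly of mm10. Each sequence is 29 bases long, written 5′ to 3′ as DNA, with the loop in capitals.
Fth1, 5′ untranslated region, chr19:9982732-9982760, plus strand: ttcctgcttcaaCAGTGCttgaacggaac
Ftl1, 5′ untranslated region, chr7:45459779-45459807, minus strand: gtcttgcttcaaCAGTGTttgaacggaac
Slc40a1, 5′ untranslated region, chr1:45925465-45925493, minus strand: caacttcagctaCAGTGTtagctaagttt
Tfrc, 3′ untranslated region, chr16:32631219-32631247, plus strand: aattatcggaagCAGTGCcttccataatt
Tfrc, 3′ untranslated region, chr16:32631598-32631626, plus strand: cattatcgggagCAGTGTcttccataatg
Tfrc, 3′ untranslated region, chr16:32631663-32631691, plus strand: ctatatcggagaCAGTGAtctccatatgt
Tfrc, 3′ untranslated region, chr16:32631710-32631738, plus strand: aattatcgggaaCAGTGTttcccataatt

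The loop letters CAGTG alone were common, in 24.2% of the 5′ and 74.7% of the 3′ untranslated regions of the tested genes. The full hairpin was in 0.118% of 11003 such 5′ regions and 0.739% of 11098 such 3′ regions. It was in 4 of 5 annotated protein-coding transcripts of Fth1, 1 of 2 of Ftl1, 1 of 4 of Slc40a1 and 1 of 3 of Tfrc. The deposited gene counts do not tell transcripts with it from those without it. The strict pattern had no match in the untranslated regions of the other 6 members, Slc11a2 among them. Slc11a2 is nevertheless counted below among messages known to carry an element, so a miss by this pattern does not show that an element is absent.

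Levels were compared between genes per kilobase of the longest protein-coding transcript, from normalized counts, which are read counts divided by 1 size factor per library. Ftl1, the light ferritin chain that helps to lay down the iron core, stood highest at 57724 ± 9512 normalized counts per kb in anti-CD22 libraries and 67977 ± 6096 in IgG libraries (SD, n = 7 each). Fth1, the heavy chain with the ferroxidase activity, followed at 23412 ± 2708 in anti-CD22 libraries and 26182 ± 2335 in IgG libraries (SD, n = 7 each). The light chain message was thus above the heavy chain message in both groups. The size of this gap depends on the lengths taken, 1494 bases for Fth1 and 968 for Ftl1. Gene counts do not show which transcripts the cells held, and a shorter Fth1 message would have a higher level per kb.

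Transport genes spread over a wide range of levels per length. Slc11a1, an iron and manganese pump of the phagosome and lysosome membrane, averaged 9232 ± 614 normalized counts per kb with anti-CD22 and 9896 ± 491 with IgG (SD, n = 7 each). Slc40a1 averaged 4486 ± 385 with anti-CD22 and 4093 ± 244 with IgG (SD, n = 7 each). Tfrc, the entry route for transferrin-bound iron, averaged 95.3 ± 29.4 with anti-CD22 and 89.9 ± 27.2 with IgG (SD, n = 7 each). The message of the exporter was thus far above that of the transferrin receptor in both groups.

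The remaining order per length was Pcbp1 between Slc11a1 and Slc40a1, then Hmox1, Aco1 and Slc11a2 below Slc40a1, and Ireb2 beside Tfrc at the low end. Each gene lay above the next in 14 of 14 libraries, except that Aco1 lay above Slc11a2 in 10 of 14 and Tfrc above Ireb2 in 8 of 14. The sensors differed in level: Aco1 averaged 566 ± 97.0 normalized counts per kb with anti-CD22 and 558 ± 83.8 with IgG, and Ireb2 averaged 102 ± 18.9 with anti-CD22 and 65.1 ± 17.3 with IgG (SD, n = 7 each).

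**Figure D1:**
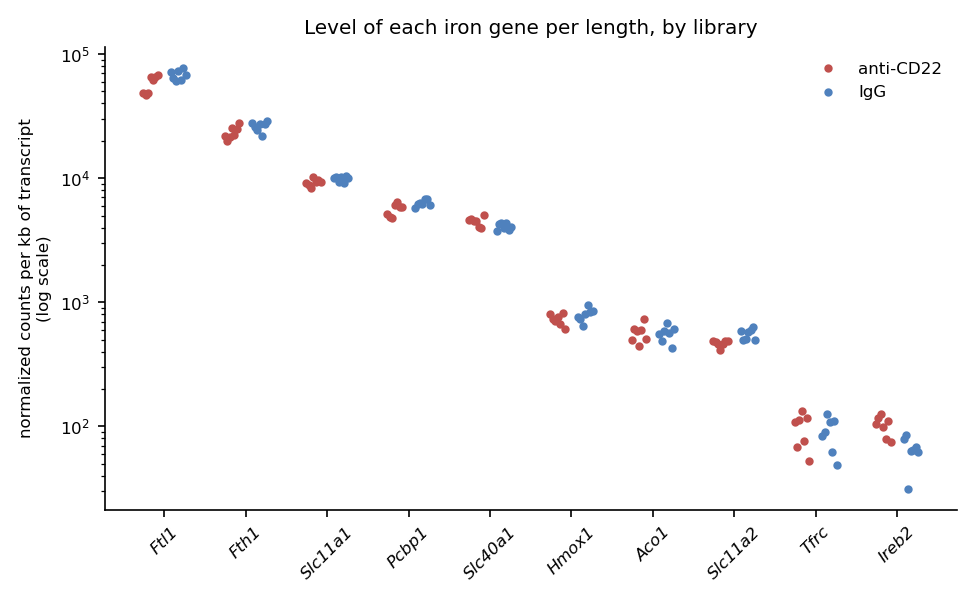
Normalized counts per kb of the longest protein-coding transcript (log axis) for the 10 iron genes, ordered by level; each point is 1 library, anti-CD22 left of IgG. Ftl1 and Fth1 lie at the top, and Tfrc and Ireb2, whose points overlap in level, at the bottom.

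Whether CD22 blockade was accompanied by other levels of these genes was tested with limma, on a log2 scale after adding a pseudocount of 1 to each value, with adjustment over all 11646 genes. No member passed an adjusted p of 0.05 (0 of 10, against 0.00859% of all genes tested, which is 1 gene, Ier2). At an unadjusted p under 0.05 by limma stood 6 of 10 members, 2 higher (Ireb2 and Slc40a1) and 4 lower (Slc11a2, Fth1, Ftl1 and Pcbp1), against 12.8% of all genes tested (6.8% higher and 5.95% lower). On whole reads of 13 libraries edgeR placed 5 of the 10 under that level, without Fth1, against 1027 of 11646 genes in all, and called 0 genes at an adjusted p of 0.05. DESeq2 placed the same 5 under it, against 1165 of 11644 genes in all, and called 35 genes, none of them a member. Of the members, 4 of 10 had a log2 fold change (anti-CD22 minus IgG) above 0, against 50.2% of all genes tested, and its median was -0.11 over the members and 0.00 over all genes tested.

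A property of the libraries moved with the groups and touches these values. Within each library, the Spearman rho across genes between transcript length and the level in that library, set against its mean over libraries, came to 0.124 ± 0.219 with anti-CD22 and -0.113 ± 0.098 with IgG (SD, n = 7 each, exact two-sided permutation p = 0.0286). On average the anti-CD22 libraries thus held relatively more of the long transcripts, most of all replicates 1, 2 and 3, at 0.311, 0.287 and 0.328, while replicates 6 and 7 lay below 0, at -0.0479 and -0.27. The difference lost its call without anti-CD22 replicate 1, 2 or 3, each with an exact permutation p of 0.0542. Member values are therefore given also after removing the trend of length and GC content in each library. Since the trend differed between the groups, its removal can also take away a group difference that follows length, and these cannot be told apart here. What made the trend differ was not tested.

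Ireb2 (chr9:54863789-54912530, plus strand) encodes IRP2, the sensor that is broken down when iron is plentiful. Its normalized counts ran from 429 through a median of 607 to 729.7 in anti-CD22 libraries, and from 182 through a median of 376 to 495 in IgG libraries. Of the anti-CD22 libraries, 5 lay above the highest IgG library and 7 of 7 above the IgG median, while the ranges overlapped through anti-CD22 replicates 5 and 7. The difference of 0.68 on the log2 scale (SE 0.18, 95% interval 0.29 to 1.06), a level 1.6-fold higher, missed the threshold at an adjusted p of 0.208. After removal of the length and GC trend it was 0.50 (SE 0.17, adjusted p = 0.385), and the transcript, at 5770 bases, is the longest of the members. Among single libraries left out, IgG replicate 3, with the lowest value at 182, moved the difference most, to 0.51.

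Aco1 (chr4:40143081-40198338, plus strand) encodes IRP1, which is a cytosolic aconitase while it holds an iron-sulphur cluster and binds RNA when it has lost it. It ran from 1689 through a median of 2241 to 2832 normalized counts in anti-CD22 libraries, and from 1632 through 2162 to 2631 in IgG libraries. The groups lay on top of each other. On the log2 scale the difference was 0.02 (SE 0.11, adjusted p = 0.966) with a 95% interval of -0.21 to 0.25, so smaller differences in either direction were not detectable.

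Slc11a2 (chr15:100387898-100425072, minus strand) encodes DMT1, which carries ferrous iron out of endosomes and across the plasma membrane. In anti-CD22 libraries it ran from 1819 through a median of 2123 to 2166 normalized counts, and in IgG libraries from 2191 through a median of 2529 to 2786. Every anti-CD22 library lay below every IgG library, the 1 member of 10 whose groups did not overlap, against 0.12% of all genes tested in the lower direction and 0.137% in the higher. The gap was narrow, since anti-CD22 replicates 1, 6 and 7 had 2162, 2166 and 2165 and IgG replicates 2, 3 and 7 had 2199.9, 2229 and 2191.

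Slc11a2 had a log2 fold change of -0.24 (SE 0.071, 95% interval -0.39 to -0.09), a level 1.18-fold lower, with an adjusted p of 0.229. After removal of the length and GC trend it was -0.27 (SE 0.074, adjusted p = 0.258), and in anti-CD22 replicates 4 to 7 against all IgG libraries -0.26 (SE 0.087, adjusted p = 0.87). Among the members at an unadjusted p under 0.05, Slc11a2 and Ireb2 were those that stayed there with the trend removed (2 of 10 members, against 1118 of the 11580 genes with a known length).

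Tfrc (chr16:32608920-32632794, plus strand) encodes the transferrin receptor, the message whose 4 hairpins are printed above. It ran from 258 through a median of 534 to 646 normalized counts in anti-CD22 libraries, and from 240.2 through a median of 445 to 609.5 in IgG libraries. It had the widest relative spread of the members, with an SD of 30.9% of the mean in anti-CD22 libraries and 30.2% in IgG libraries. At 0.08 (SE 0.22, adjusted p = 0.906) its log2 fold change had a 95% interval of -0.38 to 0.55, which holds 0, and it was -0.06 after removal of the length and GC trend, so no direction can be given.

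Slc11a1 (chr1:74375195-74386062, plus strand), the phagosomal transporter, ran from 19146 through a median of 21645 to 23549 normalized counts in anti-CD22 libraries, and from 21061 through a median of 23359 to 23951 in IgG libraries. The ranges overlapped, and 6 of 7 libraries with anti-CD22 had less than the median with IgG. On the log2 scale the difference was -0.10 (SE 0.05, adjusted p = 0.407), and -0.02 (SE 0.048) after removal of the length and GC trend. Its product is not functional in this strain, while its message was abundant.

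**Figure D2:**
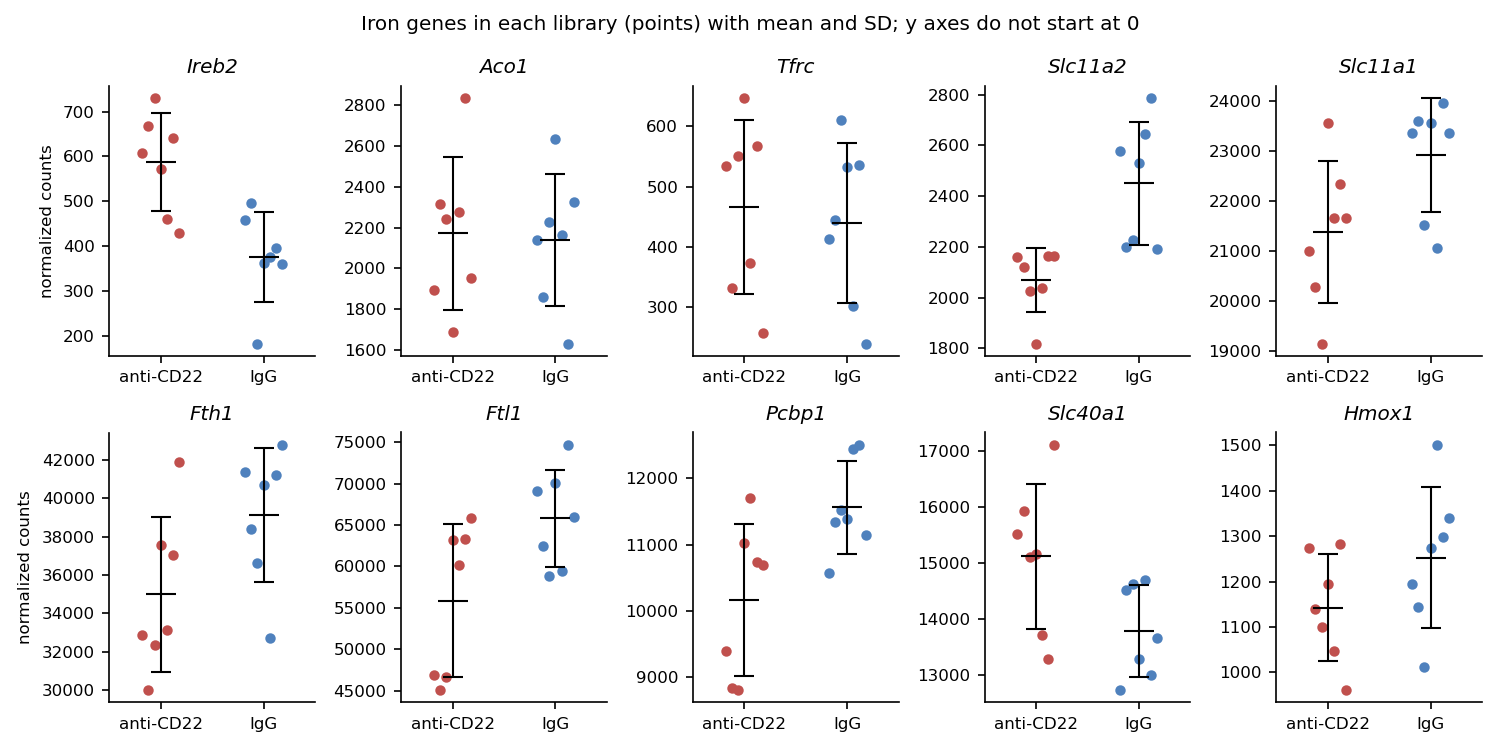
Normalized counts of the 10 iron genes in each library (points; mean with SD as bars), anti-CD22 left of IgG, each panel with its own axis. Slc11a2 is the panel in which the groups do not overlap, from 1819 to 2166 with anti-CD22 against 2191 to 2786 with IgG; in Ftl1 a group of 3 anti-CD22 libraries lies apart at the bottom.

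The ferritin chains and the chaperone that loads them were all lower with anti-CD22 by small amounts, none past the adjusted threshold. Ftl1 (chr7:45457944-45459884, minus strand) ran from 45058 through a median of 60202 to 65871 normalized counts in anti-CD22 libraries, and from 58845 through a median of 65984 to 74696 in IgG libraries. The lowest 3 anti-CD22 libraries, replicates 1, 2 and 3 at 46922, 45058 and 46651, lay below all IgG libraries, and the other 4 lay within the IgG range. Ftl1 had a log2 fold change of -0.25 (SE 0.088, 95% interval -0.43 to -0.06) at an adjusted p of 0.289.

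Fth1 (chr19:9980598-9985098, plus strand) ran from 29984 through a median of 33128 to 41864 normalized counts in anti-CD22 libraries, and from 32719 through a median of 40704 to 42789 in IgG libraries. The groups overlapped, and 6 of 7 libraries with anti-CD22 had less than the median with IgG. Its log2 fold change was -0.16 (SE 0.071, adjusted p = 0.357). Pcbp1 (chr6:86524492-86526321, minus strand), a cytosolic RNA-binding protein that delivers iron to ferritin, ran from 8806 through a median of 10692 to 11699.8 in anti-CD22 libraries, and from 10579.8 through a median of 11391 to 12509 in IgG libraries. Its log2 fold change was -0.19 (SE 0.067, adjusted p = 0.289).

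These 3 differences moved with the length trend. Anti-CD22 replicates 1, 2 and 3, which had the highest trend values, had the lowest Ftl1 and the lowest Pcbp1 of all libraries. With the trend removed, the log2 fold change was -0.09 (SE 0.046, adjusted p = 0.575) for Ftl1, -0.10 (SE 0.059, adjusted p = 0.618) for Fth1 and -0.06 (SE 0.042, adjusted p = 0.716) for Pcbp1. In anti-CD22 replicates 4 to 7 against all IgG libraries it was -0.06 for Ftl1, -0.06 for Fth1 and -0.07 for Pcbp1. That subset leaves out the anti-CD22 libraries lowest in each of these genes, so smaller differences follow from the choice. They are no separate evidence of a link to the trend.

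Within the groups, too, Ftl1 followed the trend. Over the 14 libraries, after the group means were subtracted, the level of Ftl1 had a Pearson r of -0.835 with the length trend of its library (permutation p = 0.00011, adjusted over the 10 members p = 0.0011) and a Spearman rho of -0.886 (permutation p = 9e-05, adjusted p = 0.0009). Without the 2 libraries farthest from the median trend r was -0.824. Fth1 had an r of -0.699 (permutation p = 0.00481, adjusted p = 0.024) and a rho of -0.591 (permutation p = 0.0288, adjusted p = 0.0961), with r at -0.51 without the 2 farthest libraries. Ireb2 had an r of 0.274 (permutation p = 0.328) and a rho of 0.319 (permutation p = 0.265), with r at -0.0489 without the 2 farthest libraries, and Slc11a2 had an r of -0.395 (permutation p = 0.164) and a rho of -0.521 (permutation p = 0.0594), with r at -0.408. For the other members adjusted p was above 0.05 by both measures.

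**Figure D3:**
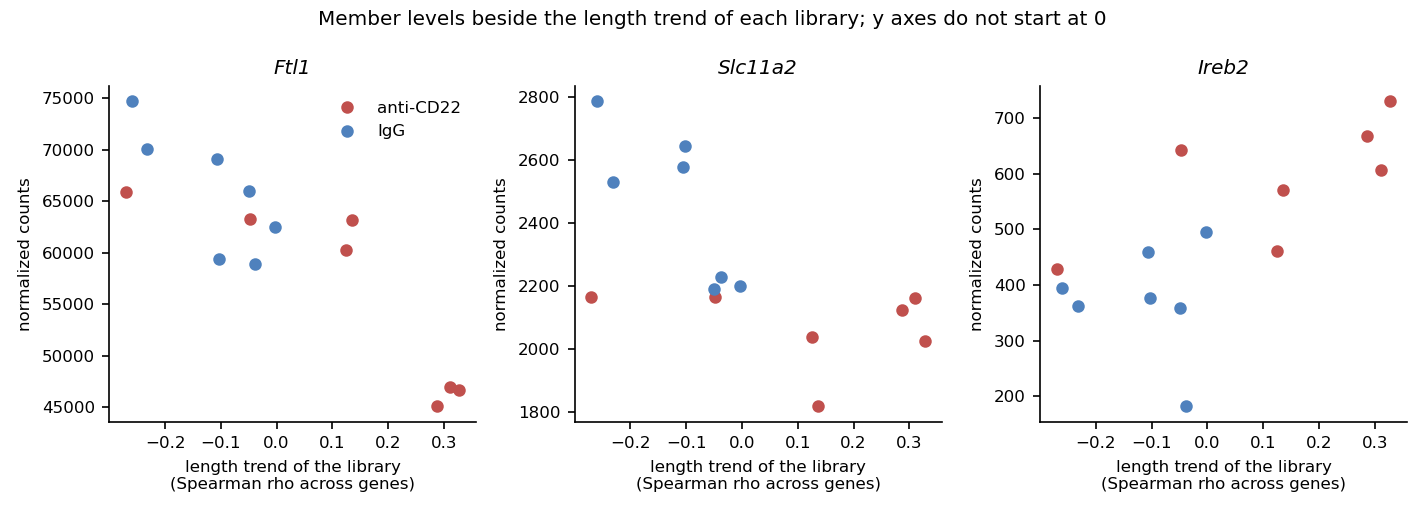
Normalized counts of Ftl1, Slc11a2 and Ireb2 in each library (points, by group) against the length trend of the library, the Spearman rho across genes between transcript length and relative level. Ftl1 is lowest in the 3 anti-CD22 libraries with a trend from 0.287 to 0.328, whereas Slc11a2 is low in anti-CD22 libraries at both ends of the trend.

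The ratio of the chains was steadier than either level. Fth1 over Ftl1 normalized counts averaged 0.632 ± 0.0574 in anti-CD22 libraries (0.55 to 0.701) and 0.595 ± 0.0367 in IgG libraries (0.551 to 0.648; SD, n = 7 each). The difference in log2 ratio was 0.084 (exact two-sided permutation p = 0.185), and -0.01 with the length and GC trend removed. Within libraries the chains went together: after the group means were subtracted, Fth1 and Ftl1 had a Pearson r of 0.818 (permutation p = 0.0003, adjusted p = 0.0115) and a Spearman rho of 0.807 (permutation p = 0.00068, adjusted p = 0.0306) over the 14 libraries, and 0.819 without the 2 libraries farthest from the Fth1 median. Of 45 pairs of members, it was the 1 pair that passed by both measures, and its r was 0.462 with the length and GC trend removed. Slc11a1 and Ftl1 had a Pearson r of 0.8 (permutation, adjusted p = 0.0115) but passed by that measure alone (Spearman adjusted p = 0.0809). With the trend removed, r was higher than 0.462 for Slc11a1 with Fth1 (0.603) and Tfrc with Ftl1 (0.587), so going together was not particular to the ferritin chains. Ferritin genes have near-identical copies in the genome and Pcbp1 resembles Pcbp2, and how reads shared between copies were counted is not given, so their levels carry that uncertainty.

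Slc40a1 (chr1:45908068-45926523, minus strand), the exporter, was higher with anti-CD22 by a small amount that missed the adjusted threshold. It ran from 13299 through a median of 15154 to 17108 normalized counts in anti-CD22 libraries, and from 12736 through a median of 13673 to 14701 in IgG libraries. Of the anti-CD22 libraries, 5 lay above the highest IgG library, and replicates 5 and 6 lay inside the IgG range. Slc40a1 had a log2 fold change of 0.13 (SE 0.058, 95% interval 0.01 to 0.25) at an adjusted p of 0.369, and of 0.06 (SE 0.051, adjusted p = 0.771) after removal of the length and GC trend.

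Hmox1 (chr8:75093621-75100589, plus strand), the enzyme that frees iron from haem, ran from 961 through a median of 1139.9 to 1282 normalized counts in anti-CD22 libraries, and from 1013 through a median of 1274 to 1501 in IgG libraries. Its groups overlapped over most of their range. Its log2 fold change of -0.13 (SE 0.093, adjusted p = 0.568) had a 95% interval of -0.32 to 0.07, and was -0.02 (SE 0.099) after removal of the length and GC trend.

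**Figure D4:**
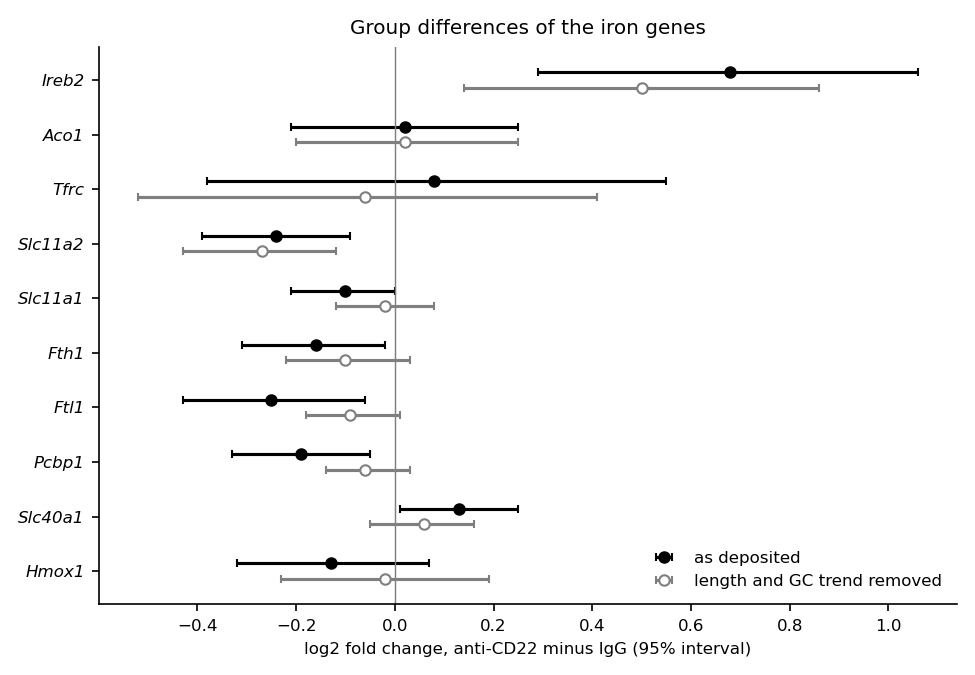
Log2 fold change, anti-CD22 minus IgG, of each iron gene with its 95% interval, from the deposited values (filled) and with the length and GC trend removed (open). With the trend removed the intervals of Ireb2 (0.14 to 0.86) and Slc11a2 (-0.43 to -0.12) lie off 0, and those of the other 8 genes include it.

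Other cells could contribute to these values, since ferritin and haem genes are active in many cell types, and in bulk samples fewer cells of a type and less RNA per cell cannot be told apart. Border macrophages, which recycle haem, left 8 of 10 markers at a mean of at least 10 normalized counts, with a summed level of 297 to 2623 in anti-CD22 libraries and 131 to 1838 in IgG libraries. Of the tested markers, 8 of 8 for border macrophages had a log2 fold change above 0 (50.2% over all genes tested), and 5 of 5 for monocytes, 6 of 8 for neutrophils and 6 of 6 for oligodendrocytes had one below 0. By limma 0 of the border macrophage, monocyte and neutrophil markers and 1 of the oligodendrocyte markers had an unadjusted p under 0.05, against 12.8% of all genes tested. The median log2 fold change was 0.66 for border macrophage, -0.38 for monocyte, -0.44 for neutrophil and -0.14 for oligodendrocyte markers. Sums of the first 3 lists varied widely between libraries, so the lack of a small p does not show equal amounts of these cells. Neutrophil markers (8 of 8 in the table) summed to between 0 and 10810.3 in anti-CD22 libraries and between 3.34 and 56107 in IgG libraries, the highest being IgG replicate 1. Monocyte markers (5 of 8, with Ear2 at 0 in every library) summed to 88.2 to 2339 in anti-CD22 libraries and 138 to 9232 in IgG libraries, the highest again IgG replicate 1. Without that library the log2 fold change was 0.73 for Ireb2, -0.23 for Slc11a2, -0.24 for Ftl1 and 0.11 for Slc40a1. Alpha and beta globin genes were listed at 0 in all libraries, while the summed erythroid markers reached 127 in anti-CD22 and 143 in IgG libraries. How reads shared between genes were counted is not given, so the 0 of the globin genes does not show that red cells were absent. Microglia markers were all present and summed to 1920630.3 to 2079269 in anti-CD22 libraries and 1822319.5 to 2172920.4 in IgG libraries. The part of these other cells in the member values was not tested.

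Further genes of iron and haem metabolism were read as lists by function, in which 0 genes passed the adjusted threshold. Haem synthesis had 6 of 14 tested genes at an unadjusted p under 0.05 by limma (1 higher and 5 lower), a share of 42.9%, against 12.8% of all genes tested. Its median log2 fold change was -0.12, or -0.10 after removal of the length and GC trend. There 4 of 14 remained under that level, against 1118 of the 11580 genes with a known length. Alas1, the rate-limiting first enzyme outside red cells, averaged 5770.5 ± 391 normalized counts with anti-CD22 and 6601 ± 486 with IgG (SD, n = 7 each), a log2 fold change of -0.19 (adjusted p = 0.235) and of -0.16 with the trend removed. Urod, a later enzyme of the pathway, averaged 938 ± 51.0 with anti-CD22 and 1113 ± 86.1 with IgG (SD, n = 7 each). Its log2 fold change was -0.24 (adjusted p = 0.236), or -0.13 with the trend removed. Tspo, a mitochondrial outer membrane protein that binds porphyrins and is used as an imaging marker of microglia, averaged 1686 ± 163 with anti-CD22 and 2035 ± 130.1 with IgG (SD, n = 7 each), and its log2 fold change of -0.27 (adjusted p = 0.205) was -0.11 with the trend removed. The groups did not overlap, by narrow gaps, for Urod (at most 1004 with anti-CD22, at least 1009.7 with IgG) and Tspo (1871 and 1872). These were 2 of 14 genes, against 0.12% of all genes tested in the lower direction and 0.137% in the higher.

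Of other iron regulators 0 of 11 tested had an unadjusted p under 0.05, against 12.8% of all genes tested. The smallest p belonged to the iron-sulphur proteins Cisd1 (log2 fold change -0.21) and Cisd2 (0.13) and to Keap1 (-0.11), which holds back the antioxidant factor Nrf2. With the length and GC trend removed they stood at -0.09, 0.09 and -0.05. Of other transporters and carriers 1 of 13 had an unadjusted p under 0.05, Slc25a37, which brings iron into mitochondria. It averaged 228 ± 43.6 normalized counts with anti-CD22 and 287 ± 55.2 with IgG (SD, n = 7 each), a log2 fold change of -0.33 (adjusted p = 0.388) and of -0.42 with the length and GC trend removed. Slc22a17, a receptor for lipocalin 2, stood at a log2 fold change of -0.21 and Sfxn3, a mitochondrial carrier, at -0.14, or at -0.18 and -0.08 with the trend removed.

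Of genes for haem uptake, transport and breakdown, 1 of 12 had an unadjusted p under 0.05, Hmox2, the constitutive haem oxygenase (log2 fold change -0.16). The haem and folate carrier Slc46a1 stood at -0.15 and the lysosomal haem exporter Slc48a1 at -0.12, but at -0.03 and -0.02 with the trend removed. Iron-sulphur cluster assembly had 4 of 29 at an unadjusted p under 0.05 (1 higher and 3 lower), a share of 13.8%, close to the 12.8% of all genes tested. Ndor1, which feeds electrons to the cytosolic assembly, averaged 959 ± 119 normalized counts with anti-CD22 and 773 ± 80 with IgG (SD, n = 7 each), a log2 fold change of 0.31 (adjusted p = 0.239) that was also 0.31 with the trend removed, while the scaffold Iscu (-0.18) and Nubp2 (-0.17) came to -0.06 and -0.04.

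Ferroxidases and other chaperones had 0 of 6 tested genes under an unadjusted p of 0.05, with Pcbp4 (log2 fold change 0.69), Cp (-0.19) and Prnp (-0.19) the smallest p. Targets of Nrf2 and Bach1, the factors that switch Hmox1 and the ferritin genes on and off, had 6 of 17, a share of 35.3% (3 higher and 3 lower, members included), against 12.8% of all genes tested. Those of the 6 outside the members were the pentose phosphate enzyme Taldo1 (log2 fold change -0.14), the glutathione synthesis gene Gclc (0.19) and the cystine importer Slc7a11 (0.72), none past the adjusted threshold. With the length and GC trend removed they stood at -0.03, 0.19 and 0.51. Of messages known to carry an iron-responsive element, 4 of 10 tested had an unadjusted p under 0.05 (1 higher and 3 lower), against 12.8% of all genes tested. All 4 were members, Slc40a1 higher and Slc11a2, Fth1 and Ftl1 lower. The others named by p, Cdc42bpa (0.55), Pfn2 (-0.31) and Alas2 (1.00), did not reach that level.

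**Figure D5:**
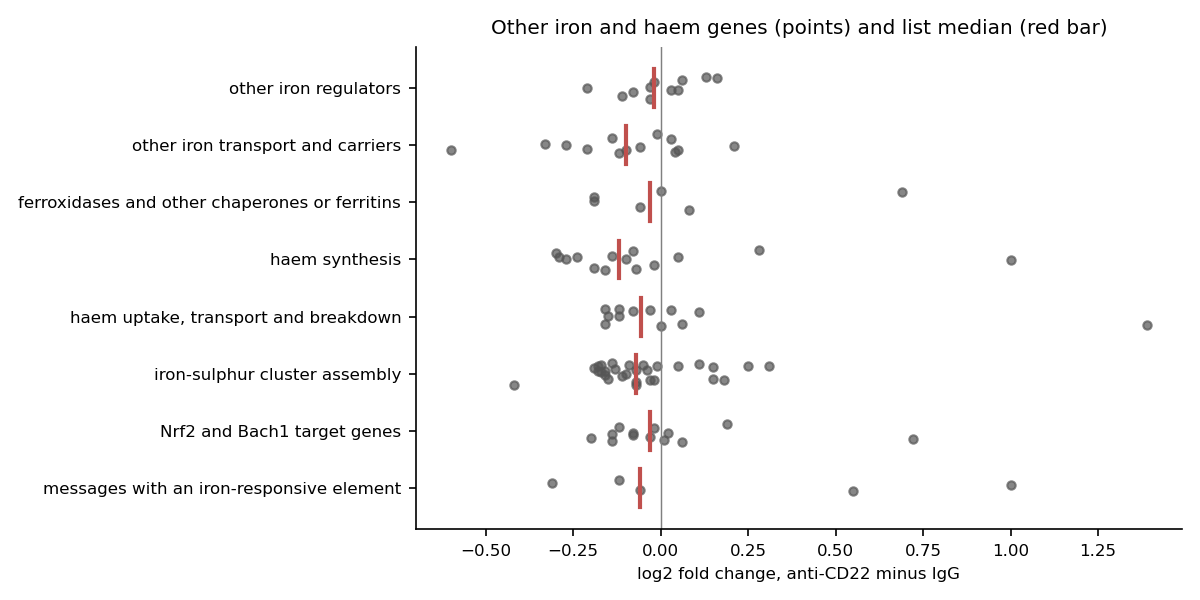
Log2 fold change, anti-CD22 minus IgG, of the tested genes of each further iron or haem list (points, the 10 members left out), with the list median as a red bar. The medians lie between -0.12 (haem synthesis) and -0.02 (other iron regulators).

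The genes whose levels went most closely with a member were named by the highest Pearson r over the 14 libraries after subtracting group means, a description with no test, in which libraries share depth and the length trend. For Ftl1 these were Cyba (0.97), Fam89b (0.963) and Mrpl20 (0.943), and for Fth1 they included Atpif1 (0.951) and the ribosomal protein gene Rps14 (0.936). Slc40a1 went with Stx12 (0.898), Ctsc (0.864) and Lpar6 (0.849), and Hmox1 with Rasal2 (0.872), Mfsd11 (0.85) and Sema6c (0.841). Tfrc went with Ubxn2b (0.877), Cdca7 (0.864) and Mtmr12 (0.841).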

How the data were processed

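Per the submitters' processing notes, bcl2fastq, STAR and DESeq2 were used, with mm10 as genome. Versions, annotation and the handling of shared reads: not given in the sources used here. Values as deposited are normalized counts, a signal for which the authors divided gene counts by 1 size factor per library. Of 24421 entries, 27 with names turned into dates were left out. The values were whole multiples of 1 step (100% within 0.1 reads), and whole reads were recovered for 13 libraries, 20221836 to 38101421 each. The step of anti-CD22 replicate 3, 1.00925, is close to 1, so it stayed out of edgeR and DESeq2. Without molecular identifiers, PCR copies count as reads.

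The main test was limma (trend, two-sided, Benjamini-Hochberg over 11646 genes with a mean of at least 10, pseudocount 1, threshold 0.05). It was tested on simulated data. A fold change on this scale understates the change of low genes. Length and GC content for the trend were those of each gene's longest GENCODE vM21 transcript, known for 99.4% of tested genes, and their trend was removed per library with natural splines. Pair correlations used 100000 permutations. All 42 replicate pairs differed beyond counting error (chi-square per gene at least 14.6).

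The members and lists were chosen with earlier results of these data known. All 10 members are named, with up to 3 genes of each further list by smallest p and 3 by likeness for Tfrc, Fth1, Ftl1, Slc40a1 and Hmox1, predicted genes passed over; 1 of these is not reported here. Alternatives were other pseudocounts, filters, scalings, variance models, weights, a replicate block, removal of the trend, count models and leaving out libraries. Tools were R 4.3.3, limma 3.58.1, edgeR 4.0.16, DESeq2 1.42.0, Python 3.11.15, pandas 2.3.3, scipy 1.17.1 and matplotlib 3.10.9.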

Additional observations from a re-analysis of the deposited data

Results flagged for a closer look

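Of 44 sets of 7 libraries examined for a library far from the rest, 5 held one, where chance gives about 1 in 20 sets. Among the members this was Slc11a2, at 1819 normalized counts in anti-CD22 replicate 4, and without it the log2 fold change was -0.21 (adjusted p = 0.292). IgG replicate 1 stood apart in the summed neutrophil markers, at 56107 against at most 15242 in the other IgG libraries, and in the summed monocyte markers, at 9232 against at most 2404. Erythroid markers, in which Alas2 was the 1 gene with a mean of at least 10, summed to 143 in IgG replicate 6, and neuron markers to 112 in anti-CD22 replicate 3.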

How the results depend on the processing

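Over 290 refits of single members, 0 passed an adjusted p of 0.05, the lowest being 0.0784 for Ireb2 without anti-CD22 replicate 7. Ireb2, Slc11a2, Slc11a1, Fth1, Ftl1, Pcbp1, Slc40a1 and Hmox1 kept their direction in all of these. Ireb2 ranged from 0.50 to 0.75 and Slc11a2 from -0.27 to -0.21, while Ftl1 ranged from -0.29 to -0.06. Tfrc turned to -0.06 with the length and GC trend removed, also together with a replicate block, and ran from -0.05 to 0.21 when single libraries were left out. Aco1 ran from -0.05 to 0.07 in those fits. The ferritin log2 ratio turned to -0.01 with the trend removed and in anti-CD22 replicates 4 to 7 against all IgG libraries, and ran from 0.06 to 0.12 over single omissions. The subset of replicates 4 to 7 leaves out the anti-CD22 libraries with the highest ratios. The length trend difference ran from 0.203 to 0.303 over single omissions. The count of genes called, 1, became 8 with array weights, 2 with a replicate block, 35 with DESeq2 (adjusted p missing for 4967 genes), and 0 with edgeR, without a mean-variance trend, with the length and GC trend removed and in anti-CD22 replicates 4 to 7 against all IgG libraries. It ran from 0 to 43 over single omissions, where anti-CD22 replicate 7 gave 43. The causes were not tested. Same-numbered libraries shared deviations (r over 0.1) in 2 of 7 pairs, and 2 of 14 libraries went best with their own number, so the numbers were not taken as pairs. The replicate block changed no call of a member. It lowered the SE of Tfrc from 0.22 to 0.125 at the same log2 fold change of 0.08, and raised the SE of Aco1 from 0.11 to 0.129. Whether some genes share values by number was not tested. Depth was at least 20221836 reads, and log2 fold changes had a median SE of 0.135 over all genes tested.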

Other observations

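Trf, the gene of transferrin, was chosen after its values were seen. It averaged 70311 ± 4269 normalized counts with anti-CD22 and 70701 ± 6386 with IgG (SD, n = 7 each); the log2 fold change was -0.01 at an adjusted p of 0.981. Oligodendrocytes are a known source of transferrin in brain. The oligodendrocyte genes Mbp, Mog and Cldn11 had means over all libraries of 974, 4.72 and 0.151 normalized counts.

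Ppox and Slc25a38, also chosen after their values were seen, were further haem synthesis genes at an unadjusted p under 0.05. Ppox, a late enzyme of the pathway, averaged 787 ± 134 normalized counts with anti-CD22 and 965 ± 123 with IgG (SD, n = 7 each). On the log2 scale it differed by -0.30 (adjusted p = 0.309), or -0.31 after removal of the length and GC trend. Slc25a38, a mitochondrial carrier that supplies glycine for haem, stood at 0.28 (adjusted p = 0.341), or 0.40 with the trend removed.

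Of the 11 tested iron regulators outside the members, 4 that act on the iron proteins had small differences as messages. Ncoa4, which delivers ferritin to lysosomes, had a log2 fold change of 0.03 (SE 0.061), Fbxl5, which marks IRP2 for breakdown, one of -0.03 (SE 0.096), Bach1 one of -0.02 (SE 0.21) and Nfe2l2, the gene of Nrf2, one of 0.05 (SE 0.049), with adjusted p from 0.716 to 0.983. With the length and GC trend removed Ncoa4 stood at -0.05, Fbxl5 and Bach1 each at -0.12 and Nfe2l2 at 0.08. At the SE of Bach1 a larger difference could have been missed. These 4 were chosen after their values were seen, and they do not stand for the other regulators.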
